A study of Mus musculus with 12 samples.

Results

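The killer lectin-like receptors described here are 9 mouse genes, Klra7, Klra8, Klrb1c, Klrc1, Klrc2, Klrd1, Klre1, Klrg1 and Klrk1. They were taken by symbol from the deposited count table, in which each matched 1 Ensembl ID, so they make up 9 of 56691 genes listed and 9 of 15935 genes with enough counts to be tested. RNA had been sequenced from naive CD8+ T cells of mouse spleen that were wild type for Senp1 (WT) or carried the CKO genotype (short for conditional knockout) of this gene, whose product is a protease that strips SUMO from other proteins. The 4 groups, of 3 libraries each, were WT and CKO cells left unstimulated (0 h), and WT and CKO cells given 5 µg/ml anti-CD3, which triggers the T-cell receptor, and 1 µg/ml anti-CD28, which supplies costimulation, over 48 h. The sources used here do not give the strain, the age, the Cre driver of the CKO allele, the purity of the naive cells or whether libraries came from separate animals, and p-values therefore measure only the spread between these libraries.

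Killer lectin-like receptors are surface proteins with a C-type lectin-like domain that read MHC class I and related molecules on other cells. Inhibitory members carry a short tyrosine motif in their cytoplasmic tail that recruits phosphatases. Activating members lack it and signal through adaptors such as DAP12 (gene Tyrobp) or DAP10 (gene Hcst). They are best known on natural killer cells, and several are also made by CD8+ T cells, mostly after antigen experience.

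Senp1, measured as the check of the genotype labels, was lower in CKO than in WT libraries at both times, at 57.0 ± 2.64 against 82.4 ± 3.99 CPM at 0 h and 70.3 ± 4.13 against 162 ± 10.5 CPM at 48 h (mean ± SD, n = 3 each), with edgeR adjusted p of 6.26e-05 and 5.43e-10. CPM are counts scaled to a common total, with totals adjusted by TMM, a normalisation that sets the bulk of the genes equal between libraries. Library totals ran from 15900529 to 22427151 counts. WT replicate 1 stood apart in its B-cell markers, whose summed level was 447 CPM at 0 h against 232 and 226 CPM in the other WT 0 h libraries. CKO 0 h replicate 2 stood apart in the killer receptors themselves, as described below. CD8+ T-cell markers were high in every library, with Cd8a at 939 CPM in WT against 822 CPM in CKO cells at 0 h.

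In the GRCm38 annotation, whose build differs from the GRCm39 of the submitters' processing notes, all 9 genes are protein-coding genes of chromosome 6. Klrg1 lies alone, at chr6:122270596-122282882 on the minus strand. The other 8 lie between positions 128778485 and 130233322, from Klrb1c at one end to Klra7 at the other, in the cluster known as the natural killer gene complex. Neighbours of this cluster are near copies of each other, which bears on how well reads can be assigned. Of the 75-base stretches of its annotated transcripts, Klrc1 shared 25.0% with another gene, mainly Klrc2, and Klrc2 shared 11.3%, mainly with Klrc1. Klra8 shared 19.7%, mainly with the pseudogene Klra14-ps, Klrb1c shared 13.2%, mainly with the overlapping gene Gm44511, and Klra7 shared 5.71%, with the pseudogene Klra13-ps. Klrd1, Klre1, Klrg1 and Klrk1 shared none. The counting program and its treatment of shared reads are likewise not stated, so values of the first 5 genes are less certain than those of the other 4.

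The coding starts of Klra7 and Klra8 are shown because these close relatives have opposite signalling tails. Klra7 encodes Ly49G, an inhibitory receptor for MHC class I, and Klra8 encodes Ly49H, an activating receptor that in C57BL/6 mice recognises a cytomegalovirus protein. Their coding sequences were 77.9% identical over 798 aligned bases. The first 120 coding bases of each, read from the GENCODE transcripts and the reference genome of GRCm38, follow with the 29 bases at which they differ in capitals.
Klra7: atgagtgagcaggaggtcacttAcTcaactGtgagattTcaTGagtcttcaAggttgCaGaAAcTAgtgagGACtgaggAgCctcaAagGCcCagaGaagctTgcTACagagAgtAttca
Klra8: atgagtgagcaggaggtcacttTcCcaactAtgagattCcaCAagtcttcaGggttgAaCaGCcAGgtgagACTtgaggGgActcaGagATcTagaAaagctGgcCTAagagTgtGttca
A tyrosine motif of the inhibitory kind, searched as 6 codons for isoleucine, valine, leucine or serine, any residue, tyrosine, any pair of residues and isoleucine, leucine or valine, was present within the first 40 codons of Klra7, Klrc1 and Klrg1. No match was found in that stretch of Klra8, Klrb1c, Klrc2, Klrd1, Klre1 or Klrk1. In Klra7 the pattern covers coding bases 16 to 33. The substitution A23T, numbered from the first coding base of Klra7 with the Klra7 base first, lies in the tyrosine codon of the pattern, codon 8, and T25C and G31A also lie within it.

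The 9 genes fell together on activation in both genotypes (edgeR's quasi-likelihood test, p adjusted by the Benjamini-Hochberg method over all tested genes, called under 0.05). In WT cells 9 of 9 were called lower and 0 higher at 48 h, where 39.1% of all tested genes were called lower and 38.7% higher. In CKO cells 9 of 9 were again lower and 0 higher, beside 39.2% and 38.5% of all genes. The median log2 change of the 9 genes was -3.61 in WT and -3.67 in CKO cells, against -0.03 and -0.04 over all tested genes. For each gene, every 48 h library lay below every 0 h library of the same genotype. The share of all tested genes separated in this way is not given here, so this only describes the 9 genes. In bulk RNA, fewer cells of a type and less RNA per cell cannot be told apart. CPM are also relative to a common total, and the amount of total RNA per cell was not tested. Of 7 CD8 T-cell genes, 6 were called lower and 0 higher at 48 h in each genotype. Their median log2 change was -0.996 in WT and -1.097 in CKO cells. Cd8a, for example, fell from 939 to 471 CPM in WT cells. The smallest fall of the 9 receptor genes, that of Klrk1, was -0.68 in WT and -0.95 in CKO cells.

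**Figure D1:**
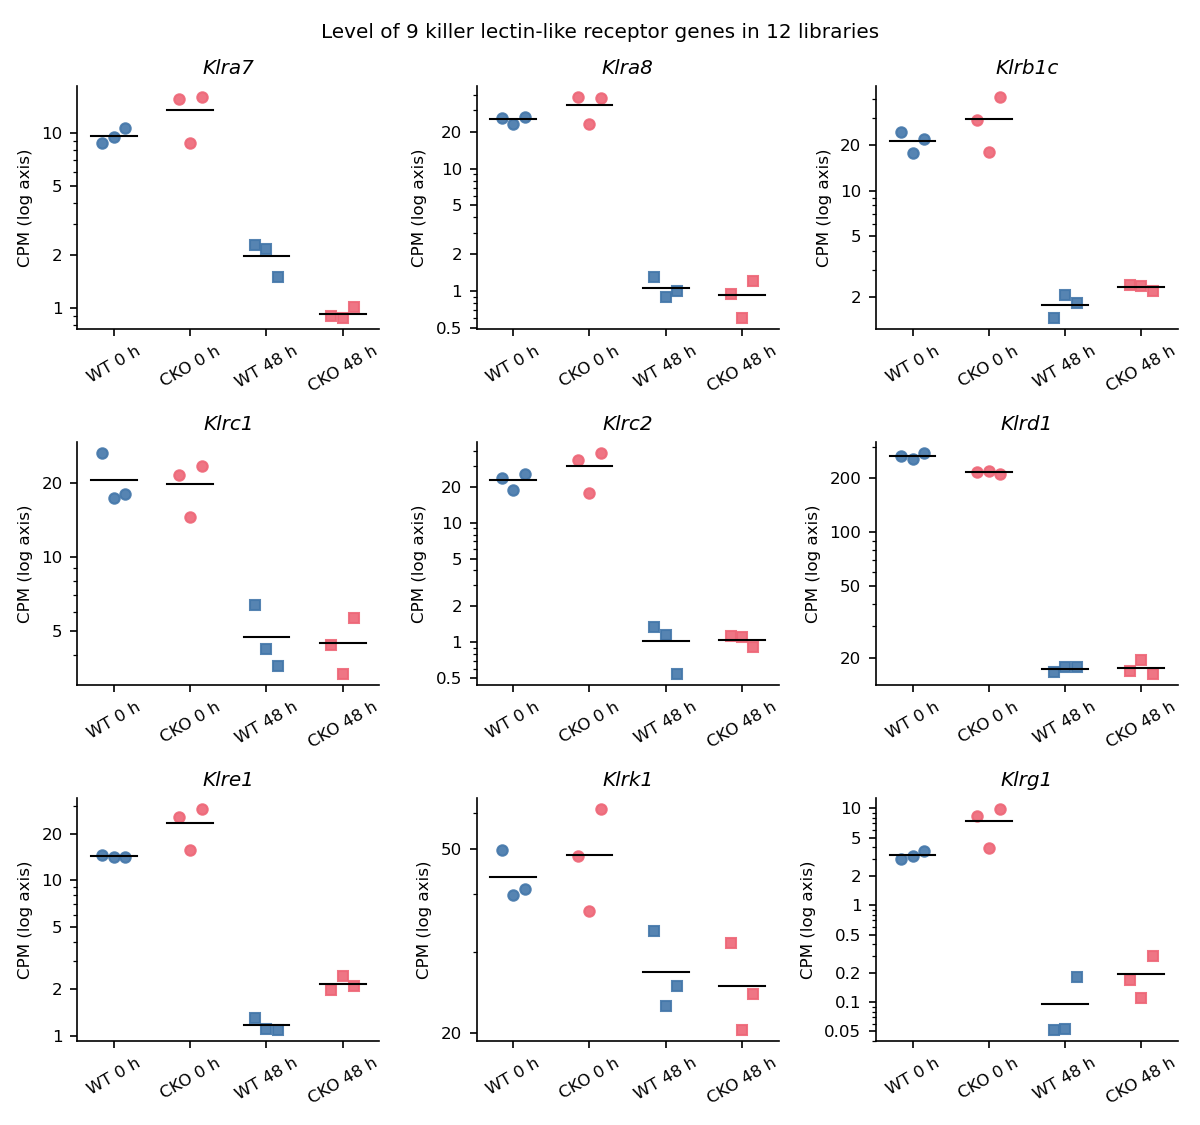
Level of each gene in CPM (log axis) in the 12 libraries, with circles for 0 h, squares for 48 h, blue for WT, red for CKO and a line at the mean of the 3 libraries. In all 9 panels the 48 h squares lie below the 0 h circles of the same genotype, most narrowly for Klrk1.

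The size of the fall differed widely between the genes. The 48 h mean was 62.3% of the 0 h mean in WT cells for Klrk1, 22.8% for Klrc1 and 20.5% for Klra7. For the other 6 genes it was between 2.89% (Klrg1) and 8.30% (Klrb1c). As a result the shares of the genes in the receptor counts changed. Klrd1 gave 62.5% of the counts of the 9 genes in WT cells at 0 h and 30.9% at 48 h, while Klrk1 gave 10.2% at 0 h and 48.2% at 48 h. In CKO cells Klrd1 went from 51.3% to 31.9% and Klrk1 from 11.5% to 46.0%. These shares are of counts and are not corrected for the lengths of the genes. Per kilobase of merged exons, Klrd1 stayed above Klrk1 at 48 h. The values were 13.5 ± 0.525 against 3.78 ± 0.757 CPM per kilobase in WT and 13.7 ± 1.34 against 3.52 ± 0.772 in CKO cells. This order rests on merged lengths of 1281 bases for Klrd1 and 7183 for Klrk1, which include every annotated isoform. In CPM, Klrk1 was the higher at 48 h, at 27.1 against 17.4 in WT cells. Which isoforms were made was not tested, so the order per transcript at 48 h is uncertain. Summed over the 9 genes, the level was 429 ± 23 CPM in WT against 422 ± 55.9 CPM in CKO cells at 0 h, and 56.3 ± 6.64 and 54.8 ± 4.77 CPM at 48 h (mean ± SD, n = 3 each).

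**Figure D2:**
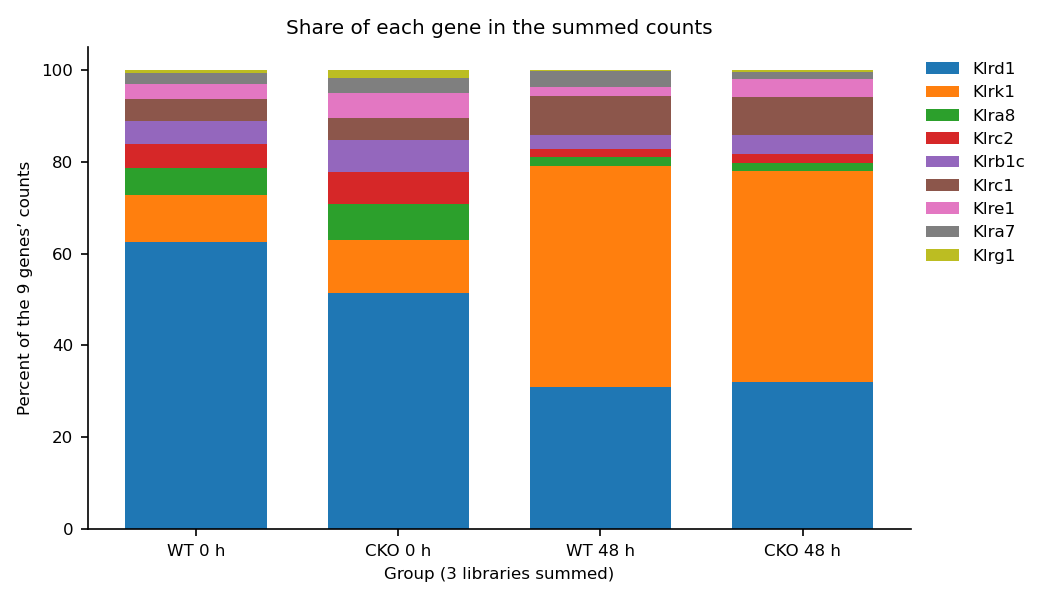
Percent of the summed counts of the 9 genes given by each gene, with the 3 libraries of a group added together. Klrd1 makes up 62.5% of the bar for WT cells at 0 h, and Klrk1 makes up 48.2% of the bar for WT cells at 48 h. Counts are not corrected for gene length.

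Per kilobase of merged exons, Klrd1 was the most abundant of the genes in WT cells at 0 h, at 209 ± 7.44 CPM per kilobase. Klra8 followed at 21.5 ± 1.56 and Klrc1 at 10.4 ± 2.56 CPM per kilobase. Klra7, Klrb1c and Klrk1 came next, at 7.62 ± 0.777, 7.22 ± 1.14 and 6.06 ± 0.759 CPM per kilobase, where the SD ranges of neighbours in this order overlapped. Klre1 (4.08 ± 0.0874) and Klrc2 (3.91 ± 0.591 CPM per kilobase) overlapped likewise, and Klrg1 was lowest at 2.33 ± 0.213 CPM per kilobase. Merged exon lengths ran from 1178 bases for Klra8 to 7183 bases for Klrk1 and include every annotated isoform, so the per-length level of a gene with long alternative exons is a low estimate.

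Klra7 had 8.76, 9.47 and 10.7 CPM in the WT 0 h libraries (replicates 1 to 3) and 2.29, 2.16 and 1.5 CPM at 48 h. In CKO cells it had 15.6, 8.78 and 16 CPM at 0 h and 0.896, 0.878 and 1.01 CPM at 48 h. CKO replicates 1 and 3 lay above all WT libraries at 0 h, replicate 2 lay among them, and at 48 h every CKO library lay below every WT library. Klra7 fell 4.88-fold on activation in WT cells (log2 change -2.29 ± 0.24 SE, adjusted p = 3.02e-08) and 14.4-fold in CKO cells (log2 change -3.85 ± 0.28 SE, adjusted p = 5.43e-11). It was the 1 gene of the 9 for which the difference between the genotypes' responses passed the test, at -1.56 ± 0.36 SE on the log2 scale (adjusted p = 0.0335). For this interaction 0.772% of all tested genes were called lower and 0.609% higher, and 1 of the 9 receptor genes was called lower and 0 higher. At 48 h Klra7 was 2.11-fold lower in CKO than in WT cells (log2 change -1.08 ± 0.30 SE, adjusted p = 0.0419). It was the 1 gene called lower of the 9, with 0 called higher, where 2.19% of all genes were called lower and 2.35% higher. The group sums behind the 48 h values were 118 counts in WT cells, with an exact Poisson 95% interval of 97.7 to 141, and 52 counts in CKO cells, with an interval of 38.8 to 68.2 (counting error only). The 48 h call was lost without either WT replicate 1 or 2 or any 1 of the CKO libraries at 48 h, with adjusted p up to 0.134, and in a fit of the 48 h groups alone (adjusted p = 0.0680). The interaction call was lost in 8 of the 12 fits that left out 1 library, with adjusted p up to 0.0915 (without CKO 0 h replicate 3).

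Klra8 had 26.1, 23.2 and 26.7 CPM in WT cells at 0 h and 1.30, 0.894 and 0.999 CPM at 48 h. In CKO cells it had 38.5, 23 and 37.8 CPM at 0 h and 0.952, 0.604 and 1.21 CPM at 48 h. The genotypes overlapped at both times, with CKO replicate 2 as the lowest library of all at 0 h. The log2 change on activation was -4.57 ± 0.26 SE in WT cells (23.7-fold lower, adjusted p = 2.82e-12) and -5.14 ± 0.28 SE in CKO cells (35.4-fold lower, adjusted p = 7.56e-13). The 48 h difference between CKO and WT was -0.19 on the log2 scale, with a 95% interval of -0.86 to 0.48 and adjusted p = 0.850. Klra8 thus kept 4.2% of its WT 0 h level at 48 h where Klra7 kept 20.5%, and in CKO cells the shares were 2.79% and 6.89%. No test was made between these genes.

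The CD94 family members pair with each other at the cell surface. Klrd1 encodes CD94, the partner chain that has no signalling tail of its own, Klrc1 encodes NKG2A, the inhibitory partner, and Klrc2 encodes NKG2C, the activating partner that uses DAP12. Both heterodimers bind the non-classical MHC molecule Qa-1, encoded by H2-T23. Klrd1 had 268, 258 and 277 CPM in WT cells at 0 h, 16.6, 17.8 and 17.7 CPM in WT cells at 48 h, 216, 221 and 211 CPM in CKO cells at 0 h and 16.9, 19.5 and 16.2 CPM in CKO cells at 48 h. Its SD was 3.56% of the mean in WT and 2.39% in CKO cells at 0 h, and its genotypes overlapped at 48 h but not at 0 h. The log2 change on activation was -3.95 ± 0.07 SE in WT cells (15.4-fold lower, adjusted p = 3.79e-19) and -3.63 ± 0.07 SE in CKO cells (12.3-fold lower, adjusted p = 9.82e-19). At 0 h Klrd1 was lower in CKO than in WT cells by 0.31 ± 0.06 SE on the log2 scale (1.24-fold, adjusted p = 0.00433), and this call held under all 14 alternatives, with adjusted p up to 0.0289. The difference between the responses, 0.32 ± 0.10 SE, did not pass the test (adjusted p = 0.132).

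Klrc1 had 26.6, 17.5 and 18.1 CPM in WT cells at 0 h, 6.39, 4.21 and 3.59 CPM in WT cells at 48 h, 21.7, 14.5 and 23.5 CPM in CKO cells at 0 h and 4.37, 3.35 and 5.67 CPM in CKO cells at 48 h. The genotypes overlapped at both times. Its log2 change on activation was -2.13 ± 0.26 SE in WT (adjusted p = 5.39e-06) and -2.15 ± 0.27 SE in CKO cells (adjusted p = 5.83e-06). Klrc2 had 23.6, 18.9 and 25.6 CPM in WT cells at 0 h, 1.35, 1.16 and 0.545 CPM in WT cells at 48 h, 33.9, 17.7 and 38.6 CPM in CKO cells at 0 h and 1.12, 1.10 and 0.911 CPM in CKO cells at 48 h. The genotypes again overlapped at both times, with CKO replicate 2 lowest at 0 h. Its log2 change was -4.49 ± 0.39 SE in WT (22.5-fold lower, adjusted p = 9.43e-08) and -4.85 ± 0.39 SE in CKO cells (28.7-fold lower, adjusted p = 4.47e-08). The counts of Klrc1 relative to those of Klrc2 therefore differed between the times. Counts of Klrc1 per count of Klrc2 ran from 0.608 to 1.12 in the 6 libraries at 0 h and from 3.05 to 6.58 in the 6 libraries at 48 h, without overlap. Merged exons are 1984 and 5812 bases long, so this is not a ratio of levels per length. Per kilobase, Klrc1 had 10.4 ± 2.56 and Klrc2 3.91 ± 0.591 CPM in WT cells at 0 h. Klrc2 had 12 to 26 counts per library at 48 h, some reads fit both genes, and protein was not measured. Neither gene was called between the genotypes. The 95% interval of the CKO against WT log2 difference was -0.52 to 0.41 for Klrc1 and -0.08 to 0.89 for Klrc2 at 0 h, and -0.64 to 0.49 and -0.91 to 1.02 at 48 h.

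Klrc1 and Klrc2 are 83.1% identical over 714 aligned coding bases, and Klrc2 is 94.9% identical to Klrc3 over 663. A stretch of 120 aligned coding bases, from base 123 of Klrc1 and base 105 of Klrc2 and read in the same way from GRCm38, is shown with its 29 differing bases in capitals, since these are the positions by which a read could be told to come from one gene or the other.
Klrc1: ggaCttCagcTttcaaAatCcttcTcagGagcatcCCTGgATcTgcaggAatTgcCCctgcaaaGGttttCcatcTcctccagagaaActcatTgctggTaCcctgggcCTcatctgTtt
Klrc2: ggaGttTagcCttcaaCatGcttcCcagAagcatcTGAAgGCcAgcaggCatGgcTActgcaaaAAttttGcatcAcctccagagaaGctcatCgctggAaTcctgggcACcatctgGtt
Klrc3, encoding NKG2E in the mouse, was less abundant, at 1.96 ± 0.239 CPM in WT cells at 0 h (mean ± SD, n = 3), and also fell on activation, by 3.24 on the log2 scale in WT cells (adjusted p = 9.37e-06).

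Klrk1 encodes NKG2D, an activating receptor that pairs with DAP10 and binds stress-induced ligands. It had 49.8, 39.8 and 41.0 CPM in WT cells at 0 h and 33.3, 22.9 and 25.2 CPM at 48 h. In CKO cells it had 48.3, 36.8 and 61.1 CPM at 0 h and 31.3, 20.3 and 24.3 CPM at 48 h. The times did not overlap within a genotype, and the genotypes overlapped at both times. Its fall was the smallest of the 9, 1.61-fold in WT (log2 change -0.68 ± 0.22 SE, adjusted p = 0.0161) and 1.93-fold in CKO cells (log2 change -0.95 ± 0.22 SE, adjusted p = 0.00284). The WT call was lost with no count filter (adjusted p = 0.0641) and without WT 0 h replicate 1 (0.0601), WT 48 h replicate 2 (0.0689) or WT 48 h replicate 3 (0.0579), whereas the CKO call held under all 14 alternatives. CKO and WT differed by 0.16 on the log2 scale at 0 h (95% interval -0.26 to 0.58) and by -0.10 at 48 h (95% interval -0.54 to 0.34), and neither passed the test.

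Promoter windows of Klrc1, Klrc2 and Klrk1 are shown because these neighbours kept very different shares of their 0 h RNA. Windows of 300 bases, from 250 before to 50 after a transcript's start, came from the RefSeq table of GRCm38.p6, in which 7 of the 9 genes were found (Klrd1 and Klrg1 were not). Capitals mark matches to the motif letters TGTGGT (RUNX) and TGANTCA (AP-1), searched on both strands.
Klrc1, chr6:129678924-129679223, minus strand: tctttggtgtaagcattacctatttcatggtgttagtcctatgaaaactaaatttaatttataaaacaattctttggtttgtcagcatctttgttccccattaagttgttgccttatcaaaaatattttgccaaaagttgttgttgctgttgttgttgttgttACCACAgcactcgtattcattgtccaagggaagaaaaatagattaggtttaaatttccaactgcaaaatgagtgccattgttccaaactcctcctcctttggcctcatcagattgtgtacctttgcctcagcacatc
Klrc2, chr6:129660547-129660846, minus strand: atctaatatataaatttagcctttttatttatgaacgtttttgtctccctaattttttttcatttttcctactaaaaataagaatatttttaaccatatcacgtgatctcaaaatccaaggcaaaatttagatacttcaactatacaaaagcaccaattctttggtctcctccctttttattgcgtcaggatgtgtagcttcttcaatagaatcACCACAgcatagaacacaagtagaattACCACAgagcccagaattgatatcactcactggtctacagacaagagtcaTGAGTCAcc
Klrk1, chr6:129623815-129624114, minus strand: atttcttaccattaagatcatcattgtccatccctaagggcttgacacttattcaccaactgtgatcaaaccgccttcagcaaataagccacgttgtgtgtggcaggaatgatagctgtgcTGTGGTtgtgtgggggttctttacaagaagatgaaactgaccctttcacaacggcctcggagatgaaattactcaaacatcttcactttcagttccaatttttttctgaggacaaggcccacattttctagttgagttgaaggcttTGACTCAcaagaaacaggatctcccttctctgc
The RUNX letters occurred once in the Klrc1 window, at 2 places in the Klrc2 window and once in the Klrk1 window, and they occur in 16.8% of the 32817 promoter windows of the table. The AP-1 letters occurred once each in the Klrc2 and Klrk1 windows and occur in 7.81% of all windows. The RUNX letters were also found in the Klrb1c window and in 1 of the windows of Klre1, but in none of Klra7 or Klra8. GGAAGT (ETS), held by 23.8% of windows, was found in Klrb1c alone of the 7 genes, TTCNNNGAA (STAT), held by 8.29%, in 1 window of Klra7 alone, and GGTGTGA (T-box), held by 3.98%, in none. Over the pair of windows with the most aligned bases, the promoters of Klra7 and Klra8 were 79.9% identical (231 of 289 aligned bases). A match is a description of these letters and does not show that a factor binds there.

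Klrb1c encodes NK1.1, the activating receptor by which natural killer cells of C57BL/6 mice are usually stained. It had 24.4, 17.7 and 22.1 CPM in WT cells at 0 h, 1.46, 2.05 and 1.82 CPM in WT cells at 48 h, 29.1, 17.9 and 41.4 CPM in CKO cells at 0 h and 2.41, 2.36 and 2.18 CPM in CKO cells at 48 h. The genotypes overlapped at 0 h, and at 48 h the CKO libraries lay just above the WT libraries. Its log2 change on activation was -3.58 ± 0.30 SE in WT (12-fold lower, adjusted p = 6.94e-08) and -3.67 ± 0.29 SE in CKO cells (12.7-fold lower, adjusted p = 3.97e-08). CKO and WT differed by 0.46 on the log2 scale at 0 h (95% interval 0.02 to 0.91, adjusted p = 0.275) and by 0.38 at 48 h (95% interval -0.31 to 1.07, adjusted p = 0.672). The 0 h interval excludes 0 although the edgeR p before adjustment was 0.0642, since the interval uses a normal quantile and is too narrow.

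Klre1 encodes a receptor that pairs with the products of Klri1 or Klri2. It had 14.6, 14.1 and 14.0 CPM in WT cells at 0 h, 1.30, 1.10 and 1.09 CPM in WT cells at 48 h, 25.5, 15.6 and 28.8 CPM in CKO cells at 0 h and 1.96, 2.41 and 2.07 CPM in CKO cells at 48 h. Every CKO library lay above every WT library at each time, CKO replicate 2 by the least at 0 h. Klre1 was 1.63-fold higher in CKO than in WT cells at 0 h (log2 change 0.71 ± 0.17 SE, adjusted p = 0.0147). At 48 h the difference was 1.84-fold (log2 change 0.88 ± 0.27 SE) and did not pass the test (adjusted p = 0.0629), although DESeq2 called it (adjusted p = 0.0320). The 0 h call was lost in a fit of the 0 h groups alone (adjusted p = 0.0615) and without WT replicate 2 (0.0510), WT replicate 3 (0.0520), CKO replicate 1 (0.0793) or CKO replicate 3 (0.130). On activation Klre1 fell 12.2-fold in WT (log2 change -3.61 ± 0.24 SE, adjusted p = 1.26e-11) and 10.8-fold in CKO cells (log2 change -3.43 ± 0.21 SE, adjusted p = 7.59e-12).

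Klrg1 encodes an inhibitory receptor for cadherins that marks antigen-experienced T cells and mature natural killer cells. It had 3.03, 3.24 and 3.63 CPM in WT cells at 0 h and 8.30, 3.88 and 9.87 CPM in CKO cells at 0 h. At 48 h it had 1, 1 and 4 counts in the WT libraries and 3, 2 and 6 counts in the CKO libraries. CKO replicates 1 and 3 stood well above WT at 0 h, and replicate 2 lay just above the highest WT library. Klrg1 was 2.22-fold higher in CKO than in WT cells at 0 h (log2 change 1.15 ± 0.31 SE, adjusted p = 0.0263). The call was lost without any 1 of the WT 0 h libraries or without CKO replicate 1 (adjusted p = 0.109) or 3 (0.190). At 48 h the group sums of 6 counts (exact Poisson 95% interval 2.2 to 13.1) in WT and 11 counts (5.49 to 19.7) in CKO cells showed no difference detectable at this depth. Its log2 change on activation was -4.96 ± 0.70 SE in WT (31.2-fold lower, adjusted p = 2.65e-08) and -5.18 ± 0.54 SE in CKO cells (36.2-fold lower, adjusted p = 1.77e-09). Without WT 48 h replicate 3 the WT change was -5.79.

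**Figure D3:**
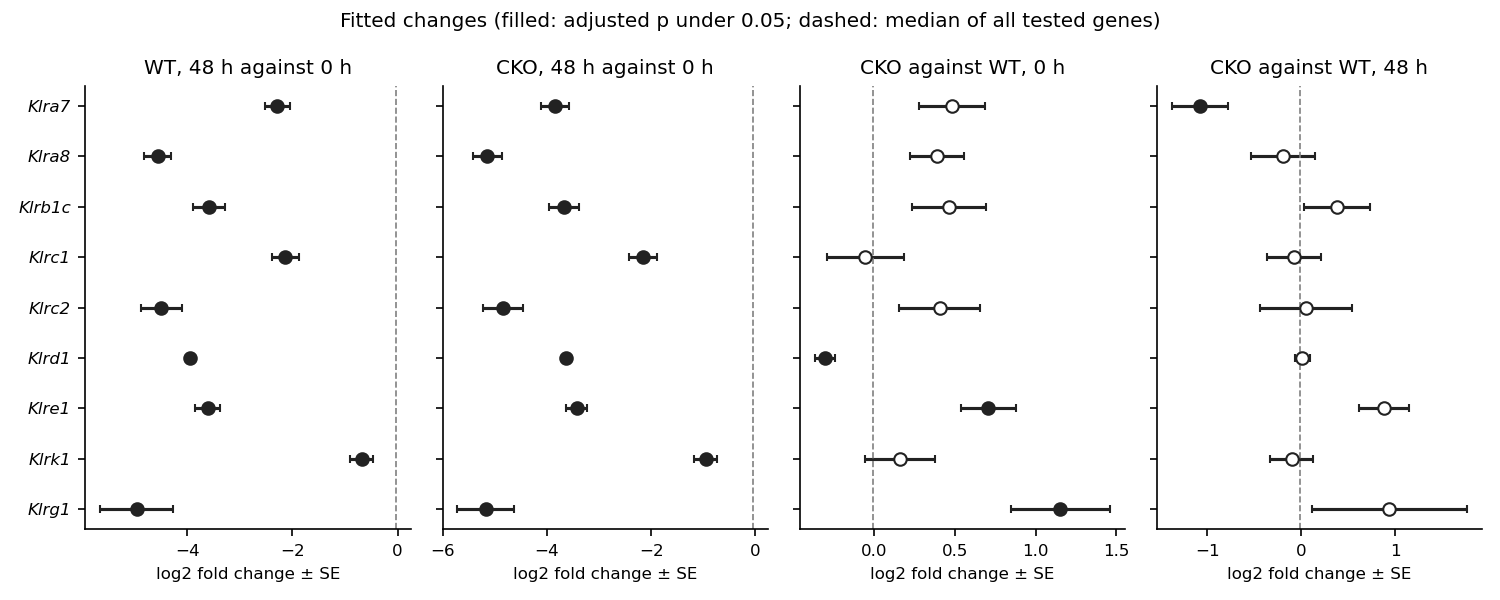
Fitted log2 fold change with its SE for each gene in 4 comparisons, filled where the edgeR adjusted p was under 0.05, with a dashed line at the median of all tested genes. All 9 points are filled and negative in both activation panels, 3 are filled at 0 h between genotypes (Klrd1, Klre1, Klrg1) and 1 at 48 h (Klra7).

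Between the genotypes at 0 h, 2 of the 9 genes were called higher in CKO (Klre1 and Klrg1) and 1 lower (Klrd1), where 4.1% of all tested genes were called higher and 3.38% lower. The fitted change was above 0 for 7 of the 9, with a median of 0.41 against -0.01 over all tested genes. Within the CKO 0 h group, 8 of the 9 genes were lowest in replicate 2, the exception being Klrd1. Summed without Klrd1 and Klrk1, the other 7 genes had 127, 104 and 121 CPM in the WT libraries and 173, 101 and 196 CPM in the CKO libraries, so that replicates 1 and 3 lay above WT and replicate 2 below it. Without CKO replicate 2, 6 of the 9 genes were called higher in CKO at 0 h, namely Klra7 (adjusted p = 0.0229), Klra8 (0.0141), Klrb1c (0.0102), Klrc2 (0.0211), Klre1 and Klrg1. Replicate 2 was singled out for its low values of these same genes, so leaving it out raises their CKO means. The 6 calls therefore only describe the weight of that library. The share of all tested genes called in that fit is not given here.

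The 6 genes chosen as markers of natural killer cells, not all restricted to them, moved with most receptor genes across the 0 h libraries. The summed level of Ncr1, Itga2, Itgam, Fcer1g, Tyrobp and S1pr5 was 64.2, 48.7 and 59.6 CPM in the WT libraries and 88.6, 46.7 and 93.4 CPM in the CKO libraries. Klre1 relative to this sum ran from 0.227 to 0.290 in WT and from 0.288 to 0.333 in CKO libraries, ranges that overlap, and Klrg1 from 0.0472 to 0.0665 in WT and from 0.0830 to 0.106 in CKO libraries, ranges that do not. Relative to the sum, 8 of the 9 genes varied less over the 6 libraries at 0 h than their CPM did, the exception again being Klrd1. Klrc2 was the closest, with a highest-to-lowest ratio of 1.17 relative to the sum against 2.17 in CPM, and Klrd1 the farthest, with 2.34 against 1.31. Of all 14 natural killer genes listed, 1 (S1pr5, 2.89 ± 0.415 CPM in WT and 6.45 ± 2.09 CPM in CKO cells, adjusted p = 0.0201) was called higher in CKO at 0 h and 0 lower. At 48 h the sum was 3.72 to 5.92 CPM in WT and 5.36 to 6.72 CPM in CKO cells. S1pr5 had 0 counts in 2 WT libraries at 48 h and Itgam in 1. Of the 14 genes, 13 were called lower and 1 higher than at 0 h in each genotype. The share of all tested genes called lower was 39.1% in WT and 39.2% in CKO cells. The most abundant of the 14, Txk, Prf1 and Gzma, differed between CKO and WT at 0 h by -0.11, -0.21 and 0.64 on the log2 scale, and none of these 3 was called (adjusted p from 0.285 to 0.725). The part of these markers in the receptor values was not tested.

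**Figure D4:**
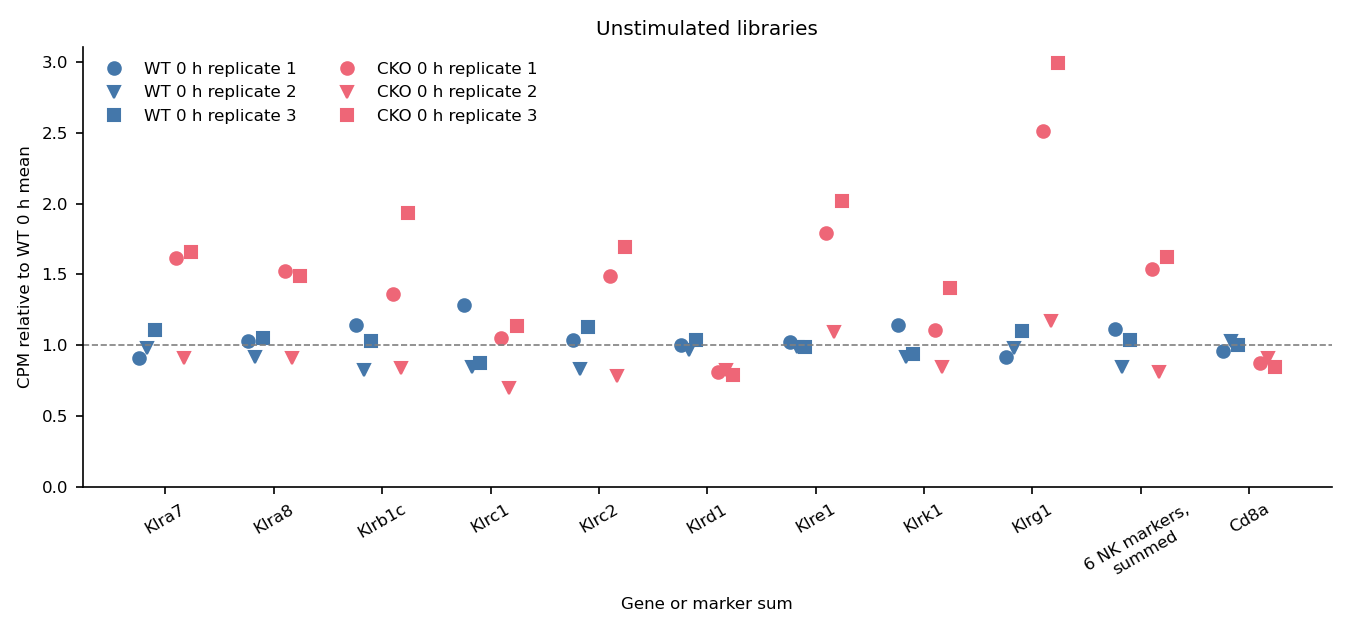
CPM in the 6 unstimulated libraries divided by the WT 0 h mean, for the 9 genes, the summed 6 natural killer markers and Cd8a, with blue for WT, red for CKO and a symbol for each replicate. CKO replicate 2 (red triangle) lies below CKO replicates 1 and 3 for 8 of the 9 genes and for the marker sum, and Klrd1 and Cd8a show little spread within a genotype.

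Other lists of cell markers gave the following picture. For comparison, 4.1% of all tested genes were called higher and 3.38% lower in CKO at 0 h. At 48 h these shares were 2.35% and 2.19%. On activation 39.1% were called lower in WT and 39.2% in CKO cells. Of 8 tested genes of gamma delta and innate-like T cells (among them Blk), 4 (Trdc, Tcrg-C1, Tcrg-C2 and Tcrg-C4) were called higher in CKO cells at each time and 0 lower, and the summed level of the list was 63.9 to 112 CPM in WT against 124 to 150.4 CPM in CKO cells at 0 h. Blk was not called, at 22.1 ± 9.99 CPM in WT against 11.7 ± 1.39 CPM in CKO cells at 0 h, while 6 of the 8 had a fitted change above 0. CKO replicate 2 had the highest sum of that list among the CKO 0 h libraries. In the same libraries the sums of 3 other lists were lowest in replicate 2, as 8 of the 9 receptor genes were, at 1594, 1472 and 1764 CPM for memory-phenotype genes, 83.0, 44.4 and 53.9 CPM for myeloid genes and 197, 155 and 186 CPM for B-cell genes (replicates 1 to 3). Of 15 memory-phenotype genes 0 were called between the genotypes at 0 h, with Il2rb at 498 CPM in WT against 475 CPM in CKO cells (adjusted p = 0.674), Itgb1 at 149.6 against 195 CPM (adjusted p = 0.0522) and Ly6c2 at 166 CPM in WT against 342 CPM in CKO cells (adjusted p = 0.0617). At 48 h 1 of the 15 was called higher in CKO (Itgb1, 405 against 259.5 CPM, adjusted p = 0.00325) and 1 lower (Il2rb, 562 against 719 CPM, adjusted p = 0.00713), while Cd44, at 412 against 259 CPM, was not called (adjusted p = 0.241). Of 5 B-cell genes (Ms4a1 and Cd79a among them) 0 and of 7 myeloid genes (Lyz2, Itgax and Cd68 among them) 0 were called between the genotypes at either time, and all 5 B-cell genes were lower at 48 h in each genotype. Of 4 CD4 T-cell genes (Cd4, Zbtb7b and Cd40lg among them) 0 were called between the genotypes at either time. The 1 of the 4 with a fitted change above 0 in CKO at 0 h was Foxp3 (log2 change 0.61). It had 8.01 ± 1.60 CPM in WT and 12.2 ± 0.246 CPM in CKO cells. Of 7 CD8 T-cell genes, 2 (Cd8a and Thy1) were called lower in CKO at 0 h and 2 (Cd8a and Cd8b1) at 48 h. Of 11 genes that mark naive T cells, activated WT cells had 11 lower and activated CKO cells 10, among them Tcf7 and Ccr7. The part of these cell types in the receptor values was not tested.

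Other genes of the receptor family also fell on activation. Of 18 further killer receptor genes, 17 were matched to an ID and 15 were tested. Of these 13 fell in WT and 14 in CKO cells and 0 rose, with medians of -3.56 and -4.04 on the log2 scale. Of all tested genes, 39.1% were called lower in WT and 39.2% in CKO cells. The most abundant were Klri2, at 22.5 CPM in WT cells at 0 h and 1.57 CPM at 48 h, Klra4, encoding the activating Ly49D, at 17.8 and 1.32 CPM, and Klra9, at 13.5 and 0.594 CPM. Between the genotypes 0 of the 15 were called at 0 h, at 48 h or for the difference between the responses. The fitted CKO against WT change at 0 h was nevertheless above 0 for 13 of the 15, with a median of 0.37, beside 7 and 0.41 for the 9 genes. The 17 matched genes summed to 90.7, 74.2 and 91.3 CPM in the WT and 123, 70.4 and 145 CPM in the CKO libraries at 0 h, with CKO replicate 2 again lowest. Klri2 was 0.39 higher in CKO on the log2 scale at 0 h (adjusted p = 0.548).

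Among 17 adaptor and signalling genes, 13 fell and 2 rose on activation in each genotype, with a median log2 change of -0.82 for WT and -0.88 for CKO cells. Of all tested genes, 39.1% were called lower and 38.7% higher in WT, and 39.2% and 38.5% in CKO cells. Tyrobp, encoding the DAP12 used by Klra8 and Klrc2, fell from 12 to 0.493 CPM in WT cells (log2 change -4.61 ± 0.45 SE, adjusted p = 3.16e-08). Hcst, encoding the DAP10 used by Klrk1, fell from 44.8 to 5.20 CPM (log2 change -3.11 ± 0.16 SE, adjusted p = 2.05e-12), a larger fall than that of Klrk1 itself, although the difference between these genes was not tested. Pik3cd, Lck and Cd247, the most abundant of the list over all 12 libraries, fell in WT cells by 0.83, 0.76 and 0.41 on the log2 scale. At 0 h 0 of the 17 were called between the genotypes. At 48 h Pik3cd (log2 change -0.24, adjusted p = 0.0161) and Sh2d1a (-0.36, adjusted p = 0.0318) were lower in CKO, and for Pik3cd the responses also differed (-0.34, adjusted p = 0.0334).

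Of 19 ligand genes, 15 were matched to an ID and 9 were tested. H2-K1, a classical MHC class I ligand of Ly49 receptors, was higher in CKO cells at 0 h (3742 against 2999.5 CPM, log2 change 0.32, adjusted p = 0.00133) and at 48 h (log2 change 0.23, adjusted p = 0.0223). B2m, the light chain of MHC class I, and H2-D1 were not called between the genotypes at either time (adjusted p at 0 h 0.119 and 0.0693). H2-T23, which encodes the Qa-1 bound by the CD94 receptors, was higher in CKO at 0 h (305 against 208 CPM, log2 change 0.55, adjusted p = 0.0174) and not called at 48 h (0.26, adjusted p = 0.316). Ulbp1, a ligand of NKG2D, rose on activation from 24.6 to 146 CPM in WT cells and was higher in CKO at 0 h (log2 change 0.70, adjusted p = 3.5e-06). Most ligand genes went the other way on activation, with 6 of the 9 called lower and 2 higher in WT cells. In CKO cells 7 were lower and 1 higher. Of all tested genes, 39.1% were called lower and 38.7% higher in WT, and 39.2% and 38.5% in CKO cells. H60b, for example, fell from 7.81 to 1.28 CPM in WT cells. Clec2i was also higher in CKO at 0 h (adjusted p = 0.0441) and at 48 h (adjusted p = 0.0166). In all, 4 of the 9 ligand genes were called higher in CKO at 0 h and 2 at 48 h, with 0 lower at either time. Of all tested genes, 4.1% were called higher and 3.38% lower at 0 h, and 2.35% and 2.19% at 48 h.

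Genes whose log2 CPM ran most closely with each receptor over the 12 libraries are named as a description, since the libraries fall into 0 h and 48 h sets and many genes share that step. For 8 of the receptors, between 2613 and 3512 of 13143 genes had a Pearson r above 0.9, and for Klrk1 108 did. The closest to Klra8 were Klra4 (r = 0.996), Ggt1 and Elf1. For Klra7 they were B3gntl1 (r = 0.990), Angel1 and A630014C17Rik. For Klrd1 they were Sun2 (r = 0.999), AW549877 and Btg1, for Klrc1 Lmbrd1 (r = 0.990), Samd3 and Ccr2, and for Klrc2 Gpr183 (r = 0.995), Tyrobp and Zfhx2. Klre1 ran with Rassf3 (r = 0.994), Ncr1 and Filip1l, Klrb1c with Nfkbiz (r = 0.995), Dnajb4 and 4930562F07Rik, and Klrg1 with Atl2 (r = 0.994), Gm12167 and P2rx4. Klrk1 ran with Capn2 (r = 0.958), Fasl and Gngt2.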

How the data were processed

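RNA was sequenced from 12 libraries of mouse spleen CD8+ T cells, extracted with TRIzol and made with a TruSeq Stranded mRNA kit, per the labels' protocols. The authors deposited whole-number counts for each Ensembl ID, with no scaling. The build GRCm39 and the tools HISAT2 2.2.1, cutadapt and DESeq2 are named in the submitters' processing notes. How reads were counted, with which annotation and strand setting, is not given in the sources used here. Sense and antisense reads, or reads of near copies, may be mixed.

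Of 56691 IDs, 52073 were matched to a symbol by ID, and 0 columns of values were left unused. All 12 libraries, totalling 15900529 to 22427151 counts each, entered 1 edgeR 4.0.16 fit in R 4.3.3 (TMM, filterByExpr, robust quasi-likelihood, 1 mean per group, 8 residual degrees of freedom), and 15935 genes were tested. Two-sided p-values were corrected over all of them (Benjamini-Hochberg). SE are Wald errors and 95% intervals of log2 changes are 1.96 SE either way. This normal quantile makes the intervals too narrow for groups of 3 libraries. The fit was also run on simulated counts with changes set only between the genotypes. Its outcome is not reported here, and it does not bear on the changes on activation. Alternatives, given in the closing section, included DESeq2 1.42.0, other scalings and filters, a replicate block and leaving out each library.

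The text names all 9 receptor genes, the defining and up to 3 most abundant genes of each list, the 3 genes nearest to each receptor by Pearson r of log2 CPM (prior count 2, mean CPM of at least 1), and Senp1. Some genes that this rule names are not reported here. Other names were chosen after their values were seen. The members and lists were chosen with earlier results of these data known. Sequence comparisons and plots used Biopython 1.88, SciPy 1.17.1, pandas 2.3.3 and matplotlib 3.10.9 under Python 3.11.15.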

Additional observations from a re-analysis of the deposited data

Results flagged for a closer look

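Klra7 passed the test of a difference between the genotypes in the response to activation. Its log2 change from 0 h to 48 h was -2.29 in WT and -3.85 in CKO cells, a difference of -1.56 (edgeR adjusted p = 0.0335), and all 3 CKO libraries lay below all 3 WT libraries at 48 h. Of the 9 receptor genes it was the 1 for which the test of that difference passed the threshold. The call was lost in 8 of the 12 fits that left out 1 library (adjusted p up to 0.0915) and with WT replicate 1 left out at both times (0.0767).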

How the results depend on the processing

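The changes on activation of the 9 receptor genes kept their direction under every alternative run, and they kept their calls except for Klrk1 in WT cells, called in 11 of 15 alternatives (adjusted p up to 0.0689). Depth limits Klrg1 at 48 h, which had 6 counts over the WT and 11 over the CKO libraries. The number of the 9 receptor genes called higher in CKO at 0 h, 2 as reported, was 4 with no count filter, 1 with a stricter filter (CPM of at least 5 in 3 libraries, which leaves Klrg1 untested), 1 in a fit of the 2 groups compared alone, and 0 to 6 when 1 library was left out, with 6 without CKO 0 h replicate 2. That replicate was singled out for its low values of these genes, as described above. The number called higher in CKO at 48 h, 0 as reported, was 1 with no count filter and 1 with DESeq2. The number called lower in CKO at 48 h, 1 as reported, was 0 with the stricter filter, 0 in the 2-group fit, 0 with WT replicate 1 left out at both times and 0 to 1 when 1 library was left out. The number called lower for the difference between the responses, 1 as reported, was 0 with WT replicate 1 left out at both times and 0 to 1 when 1 library was left out. The cause was not tested.

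Fitted changes of genes that were not called between the genotypes changed sign in some fits. With WT replicate 1 left out at both times, Klrc1 differed by 0.17 at 0 h, 0.20 at 48 h and 0.0255 for the difference between the responses (all log2), Klrd1 by -0.0257 at 48 h and Klrk1 by 0.0615 at 48 h, and with no count filter Klrd1 differed by -0.00797 at 48 h. When 1 library was left out, the log2 change at 0 h ran from -0.19 to 0.16 for Klrc1 and from -0.0358 to 0.32 for Klrk1. At 48 h it ran from -0.45 to 0.0385 for Klra8, from -0.29 to 0.20 for Klrc1, from -0.26 to 0.31 for Klrc2, from -0.0660 to 0.0623 for Klrd1 and from -0.28 to 0.0619 for Klrk1. The difference between the responses ran from -0.34 to 0.24 for Klrb1c, from -0.24 to 0.24 for Klrc1, from -0.0417 to 0.36 for Klre1 and from -0.71 to 0.62 for Klrg1.

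With a replicate block the counts were those reported, 9 lower on activation in each genotype, 2 higher and 1 lower in CKO at 0 h, and 1 lower at 48 h and for the difference between the responses. The replicate numbers were not taken as pairs, since the labels do not say that they mark a shared animal or day. Correlations of deviations between same-numbered libraries ran from -0.01 to 0.16. Those between 0 h and 48 h of a genotype were all above 0, at 0.16, 0.16 and 0.06 in WT and 0.04, 0.05 and 0.06 in CKO libraries. WT replicate 1 also had the highest B-cell sum of the WT libraries at 48 h (55.1 against 24.9 and 30.3 CPM). Whether the libraries are paired was not tested.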
